A study of Mus musculus with 10 samples.

Results

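Interferon-stimulated genes are the antiviral genes whose transcription rises when a cell is exposed to interferon. The 40 genes described here were taken by name from the well-known mouse members of that response, out of 52636 genes in the count table. They were measured in DIN cells, a mouse leukaemia made by giving fetal liver cells 3 MSCV retroviral vectors: TRI-DNMT3AR882H-dsRed, MIG-IDH2R140Q and MIT-NRASG12D, the last of which also carries the TTA factor that drives the first. The cells had passed through sub-lethally irradiated female Ptprca recipients, and frozen cells of moribund mice were then transplanted into further Ptprca recipients. These were fed normal chow and water (R882H on) or were given doxycycline (R882H off) for 5 or 14 days, and cKit+/Cd11b- cells were sorted from bone marrow and spleen. There were 2 day 5 on, 2 day 5 off, 2 day 14 on and 4 day 14 off libraries. All 4 groups carry the IDH2 and NRAS vectors, and doxycycline was given only with the regulated vector, so its own effect and that of turning R882H off cannot be told apart. The labels do not say which library came from marrow or spleen, nor whether each is a separate mouse, so p-values measure the spread between these libraries.

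Type I interferons bind a receptor made of IFNAR1 and IFNAR2, whose kinases JAK1 and TYK2 phosphorylate STAT proteins. With IRF9 these form a complex that binds the interferon-stimulated response element (ISRE) before its target genes, while type II interferon acts mainly through gamma-activated sites (GAS). The products sense foreign RNA or DNA, block translation, tag proteins with ISG15 or hinder viral entry and budding. The response can also be set off by nucleic acids of the cell itself.

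Total counts ran from 9292644 to 14340624 per library, and a count of 0 allows up to 0.209 to 0.323 CPM (counts relative to the library total; 3 counts of the total, counting error only). Levels below are CPM scaled by edgeR's TMM factors. Genes at ribosomal RNA loci took 7.78% to 16.5% of the counts. Both sort marker genes were lower in the day 14 off libraries. Kit read 88.9 and 98.1 CPM at day 14 on and 30.9 to 36.4 CPM at day 14 off (log2 change -1.44 ± 0.12, adjusted p = 4.78e-05 by edgeR), and 40.3 to 56.2 CPM over the day 5 libraries. Itgam, which encodes Cd11b, read 21.9 and 8.76 CPM at day 14 on and 2.07 to 3.73 CPM at day 14 off (-2.28 ± 0.56, adjusted p = 0.0121), a call that ended without day 14 on replicate 1 (adjusted p = 0.14, the highest over the alternatives). The part of this shift in the changes below was not tested. Mouse Dnmt3a, which is no check of the vector because the species of its insert is not in the labels, measured 55.9 and 73.6 CPM in the day 14 on libraries against 31.9 to 39.2 CPM in the off libraries, while at day 5 its 51.2 and 52.8 CPM (on) and 50.2 and 65.6 CPM (off) overlapped. Of the 40 genes, 39 passed the low-count filter; Ifi44, an antiviral protein of unsettled function, had 1 count in all libraries together and was not tested.

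RefSeq promoter windows (GRCm38.p6, 250 bases before to 50 after a start site) were given for 32 of the 40 genes. The ISRE letters searched (GAAA, then any 2 bases, then GAAA), on either strand, occurred in at least 1 window of 19 of the 32 genes (59.4%), against 3.99% of all 27025 genes with a window. The GAS letters TTCNNNGAA occurred in 8 of the 32 (25%), against 9.55% of all genes. Matches are letters in a window and no measured binding. The stretches below are those of the genes whose levels changed in at least 1 comparison, and of Isg15 as a gene that did not pass the main test in any comparison. They are printed 5′ to 3′ on the strand of the gene, with the ISRE letters, or their reverse complement, in capitals. They lie before the annotated gene, except that of Ifi203, which lies before a RefSeq start site within the longer GENCODE gene.
Ddx60, chr8:61928014-61928086, plus strand: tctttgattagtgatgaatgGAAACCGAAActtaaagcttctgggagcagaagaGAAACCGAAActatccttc
Oas1a, chr5:120907526-120907565, minus strand: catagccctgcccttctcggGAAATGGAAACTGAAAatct
Oas3, chr5:120777705-120777754, minus strand: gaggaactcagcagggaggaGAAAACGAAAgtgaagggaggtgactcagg
Ifit1, chr19:34640765-34640833, plus strand: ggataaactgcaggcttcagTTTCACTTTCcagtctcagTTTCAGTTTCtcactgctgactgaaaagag
Rsad2, chr12:26456543-26456592, minus strand: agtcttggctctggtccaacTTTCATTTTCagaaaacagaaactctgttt
Ifi203, chr1:173942508-173942537, minus strand: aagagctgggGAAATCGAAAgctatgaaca
Isg15, chr4:156200855-156200916, minus strand: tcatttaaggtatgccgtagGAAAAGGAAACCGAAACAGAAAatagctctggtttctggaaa
Ddx60 holds the same 10 letters at both of its matches, and in Oas1a and Isg15 the matches overlap each other. Of the 11 changed genes with a window, 6 held the ISRE letters, in the 6 stretches above from Ddx60 to Ifi203.

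At day 14 the interferon-stimulated genes changed in both directions with R882H off. Ddx60 and Oas1a rose, Ifi203, Samd9l, Ifi47 and Trim25 fell, and 33 of the 39 tested genes did not pass edgeR's quasi-likelihood test at an adjusted p of 0.05. The 2 rises are 5.13% of the genes tested, against 16.9% of all 15916 tested genes, and the 4 falls are 10.3%, against 14.9% (31.8% in either direction). The median log2 change (off over on) was -0.34, while that of all tested genes was 0.01. Groups did not overlap, with off above on, for 5 genes (background 27.9%) and, with off below on, for 14 genes (35.9%, background 24.6%). With the fit limited to the day 14 libraries the counts were 4 rises and 11 falls, and with no low-count filter they were 5 and 7. The fit limited to day 14 added Eif2ak2 and Xaf1 to the rises. It added Ifit1, Ifit2, Ifit3, Gbp3, Usp18, Parp9 and Dtx3l to the falls. Over all genes these 2 settings called 5551 and 5605 in either direction, against 5063 in the main fit. In bulk RNA, fewer cells of a type and less RNA per cell cannot be told apart.

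**Figure D1:**
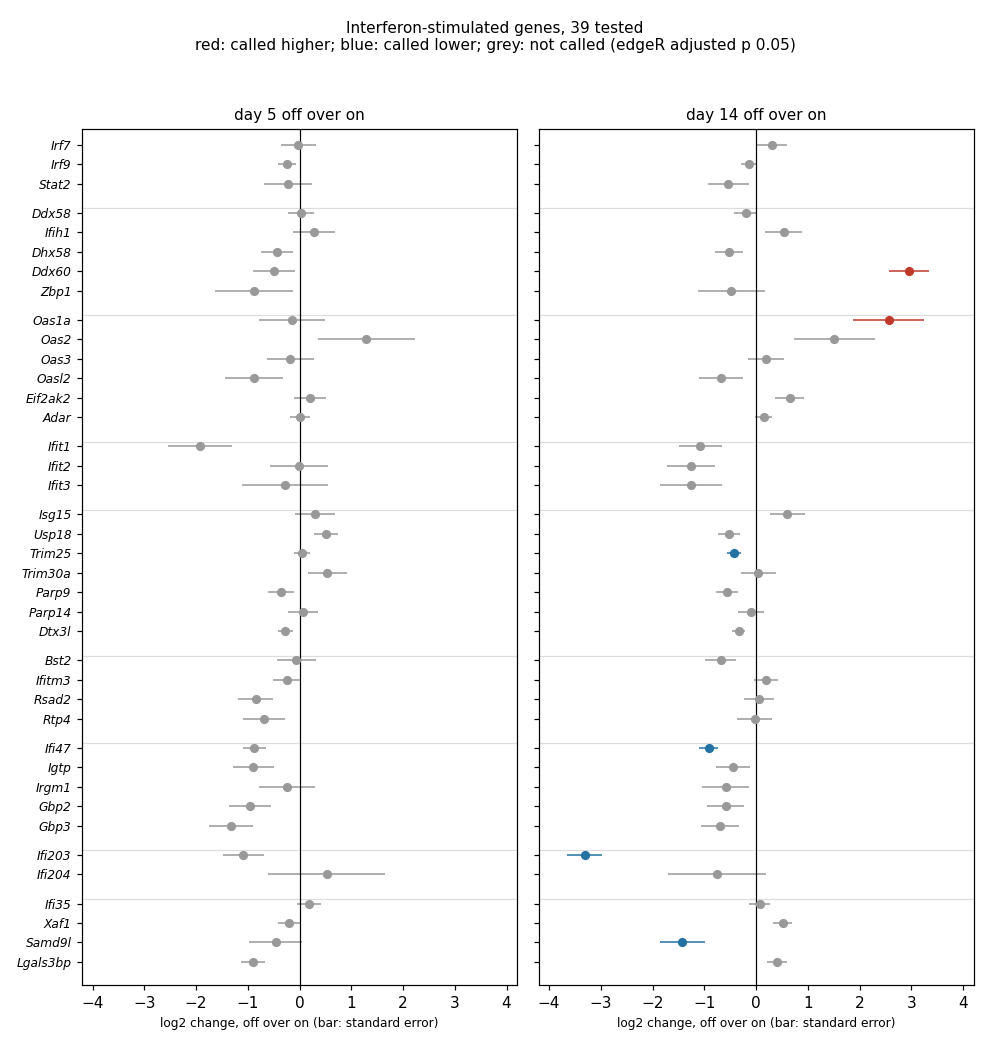
Log2 change, off over on, at day 5 (left) and day 14 (right) for the 39 tested interferon-stimulated genes in order of role; points are edgeR estimates, bars are standard errors, red and blue mark genes called higher and lower. Ddx60 and Oas1a at day 14 lie far to the right and Ifi203 far to the left, the 5 GTPase genes lie left of 0 on both days, and no gene is called at day 5.

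Of the 3 transcription factor genes, none passed the test at day 14. Their log2 changes were 0.30 for Irf7, the main amplifier of interferon production, -0.14 for Irf9, the DNA-binding partner of the STAT complex, and -0.54 for Stat2. Irf7 lay at 34.2 and 27.1 CPM at day 14 on and at 34.0 to 40.8 CPM at day 14 off, and the groups overlapped by a narrow margin. Irf7 overlaps Phrf1 on the opposite strand with a like total (3676 and 3516 counts), and the strand setting of the counting is not given in the sources used here.

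Among the 5 sensor genes Ddx60, a helicase linked to RIG-I signalling, rose at day 14. Its gene lies at chr8:61928087-62038244. It read 0.725 and 0.903 CPM at day 14 on and 8.21, 5.42, 5.92 and 6.21 CPM at day 14 off. Every off library lay above both on libraries, and above all 4 day 5 libraries, which ran from 1.13 to 2.59 CPM. The log2 change was 2.96 ± 0.39 (SE; 7.78-fold, adjusted p = 0.000356). The call held in each of the alternatives run. For Ddx58 (RIG-I), Ifih1 (MDA5), Dhx58 (LGP2) and Zbp1, a sensor of Z-form nucleic acid, log2 changes ran from -0.53 to 0.54 and none passed the test.

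Of the 6 double-stranded RNA enzymes, Oas1a rose at day 14. It makes short oligoadenylates on sensing double-stranded RNA. It had 1 and 3 counts at day 14 on (0.104 and 0.271 CPM) and 15, 21, 13 and 11 counts at day 14 off (1.27, 1.54, 0.895 and 1.04 CPM). The pooled ratio of off to on was 6.14, with an exact 95% counting interval of 2.28 to 23.3. That interval pools the reads of each group and leaves out the spread between libraries. The fitted log2 change was 2.56 ± 0.69 (adjusted p = 0.0162 by edgeR). The day 14 off libraries overlap the day 5 levels of 0.406 to 1.13 CPM, and both day 14 on libraries lay below every day 5 library. Without day 14 on replicate 1 the adjusted p was 0.131 (range over the alternatives 0.0102 to 0.131). Of its relatives Oas2 had a log2 change of 1.51, Oas3 0.18 and Oasl2 -0.68. For Eif2ak2 (PKR), the kinase that stops translation, it was 0.65, and for Adar, which edits double-stranded RNA, 0.15. None of these 5 passed the test.

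The 3 IFIT genes, whose proteins bind foreign RNA ends, had log2 changes of -1.08 (Ifit1), -1.25 (Ifit2) and -1.25 (Ifit3) at day 14, and none passed the test in the main fit. All 3 were called lower in the fit of only the day 14 libraries, which called 5551 of all genes, against 5063 in the main fit. Ifit1 was also called lower with limma voom, Ifit2 with DESeq2, and Ifit2 and Ifit3 with no low-count filter. Ifit2 read 7.57 and 14.5 CPM at day 14 on and 5.25, 3.95, 2.89 and 6.68 CPM at day 14 off. For each of the 3 genes both on libraries lay above all 4 off libraries. Summed over the 3 genes the on libraries held 12.7 and 21.6 CPM and the off libraries 5.09 to 8.55 CPM, and day 14 on replicate 2 was the highest of all 10 libraries.

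Of the 7 genes of the ISG15 and ubiquitin system, Trim25, the ubiquitin ligase that acts with RIG-I, fell at day 14. It lay at 80.2 and 63.5 CPM at day 14 on and at 53.6, 52.9, 57.9 and 49.1 CPM at day 14 off, a log2 change of -0.43 ± 0.13 (1.35-fold lower, adjusted p = 0.031). The groups did not overlap, but the gap from 57.9 to 63.5 CPM is small, and without day 14 on replicate 1 the adjusted p was 0.288 (range over the alternatives 0.0152 to 0.288). Leaving out day 14 off replicate 1, 2 or 4, or the low-count filter, also ended the call. Isg15, the ubiquitin-like tag itself, read 21.6 and 36.8 CPM at day 14 on and 51.3, 43.2, 41.5 and 41.7 CPM at day 14 off. Its log2 change of 0.60 ± 0.34 did not pass the test (adjusted p = 0.203), although it was called with no low-count filter. Usp18, which removes ISG15 and damps the receptor, was at -0.52, and Parp9, Parp14, Dtx3l and Trim30a ran from -0.56 to 0.04. Parp9 and Dtx3l overlap on opposite strands.

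Among the 4 membrane genes none passed the test at day 14. Log2 changes were -0.68 for Bst2 (tetherin), 0.19 for Ifitm3, which blocks viral entry, 0.06 for Rsad2 (viperin) and -0.02 for Rtp4, a chaperone of receptors. Rsad2 lay at 39.7 and 72.3 CPM at day 14 on, and its 4 off libraries, from 53.6 to 65.9 CPM, fell between these.

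The 5 interferon-induced GTPases, which attack the vacuoles of microbes inside cells, had negative log2 changes at day 14, from -0.92 to -0.44, of which only that of Ifi47 passed the test. Ifi47 read 21.7 and 24.7 CPM at day 14 on and 13.4, 14.4, 10.4 and 10.8 CPM at day 14 off. The groups did not overlap, and the log2 change was -0.92 ± 0.19 (1.89-fold lower, adjusted p = 0.00382). The call held in each of the alternatives run. Olfr56, which overlaps Ifi47 on the same strand with far fewer counts (144 against 2231), had a log2 change of -1.49. Gbp3 was at -0.70, and Gbp2, Irgm1 and Igtp ran from -0.59 to -0.44; Igtp overlaps Irgm2, so their counts may be mixed.

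Ifi203, a p200 protein of the family of nuclear DNA-binding proteins, had the largest fall of the 39 genes at day 14. Its gene lies at chr1:173920407-173942672. It read 212 and 198 CPM at day 14 on and 16.2, 29.1, 12.6 and 24.4 CPM at day 14 off. Every off library lay below every other library of the series. The log2 change was -3.32 ± 0.33 (9.96-fold lower, adjusted p = 0.00013). The call held in each of the alternatives run. Ifi203 overlaps its relative Mndal on the same strand, with totals of 11830 and 10214 counts, and how reads in the shared stretch were counted is not given in the sources used here, so their counts may be mixed. Mndal read 159 and 146 CPM at day 14 on and 24.5 to 34.4 CPM at day 14 off (log2 change -2.30 ± 0.28, adjusted p = 0.000321), and the sum of both genes had a log2 change of -2.79 ± 0.28. The other listed p200 gene, Ifi204, was at -0.76 and did not pass the test.

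Of the p200 genes beside them that passed the filter, 3 of 9 fell at day 14 and none rose (background 14.9% lower and 16.9% higher). They were Mndal, Ifi209 (-1.89) and Ifi214 (-2.10), of which Ifi214 lay at 0.376 to 0.762 CPM at day 14 off. Ifi214 lost its call in 6 of 17 alternatives: the replicate block (adjusted p = 0.0909), leaving out either day 14 on library (up to 0.201, the highest) and without day 14 off replicate 2, 3 or 4. Ifi207 was at -1.37, Ifi206 and Ifi211 at -0.24, Ifi213 at -0.13, Ifi205 at 0.55 and Ifi208 at 0.66, and none of these passed the test. These genes are near copies of each other, and how reads that fit several of them were counted is not given in the sources used here.

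Of the other 4 tested genes Samd9l, a regulator of growth factor receptors and translation, fell at day 14. It read 66.8 and 39.3 CPM at day 14 on and 21.4, 15.2, 18.8 and 23.5 CPM at day 14 off, with no overlap. The log2 change was -1.43 ± 0.43 (2.69-fold lower, adjusted p = 0.0303). Without day 14 on replicate 1 the adjusted p was 0.219, and the call also ended without day 14 off replicate 2 or 3 (range over the alternatives 3.49e-12 to 0.219). Xaf1, a partner of the apoptosis inhibitor XIAP, was at 0.51, Lgals3bp, a secreted glycoprotein, at 0.40 and Ifi35 at 0.07, and none passed the test.

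**Figure D2:**
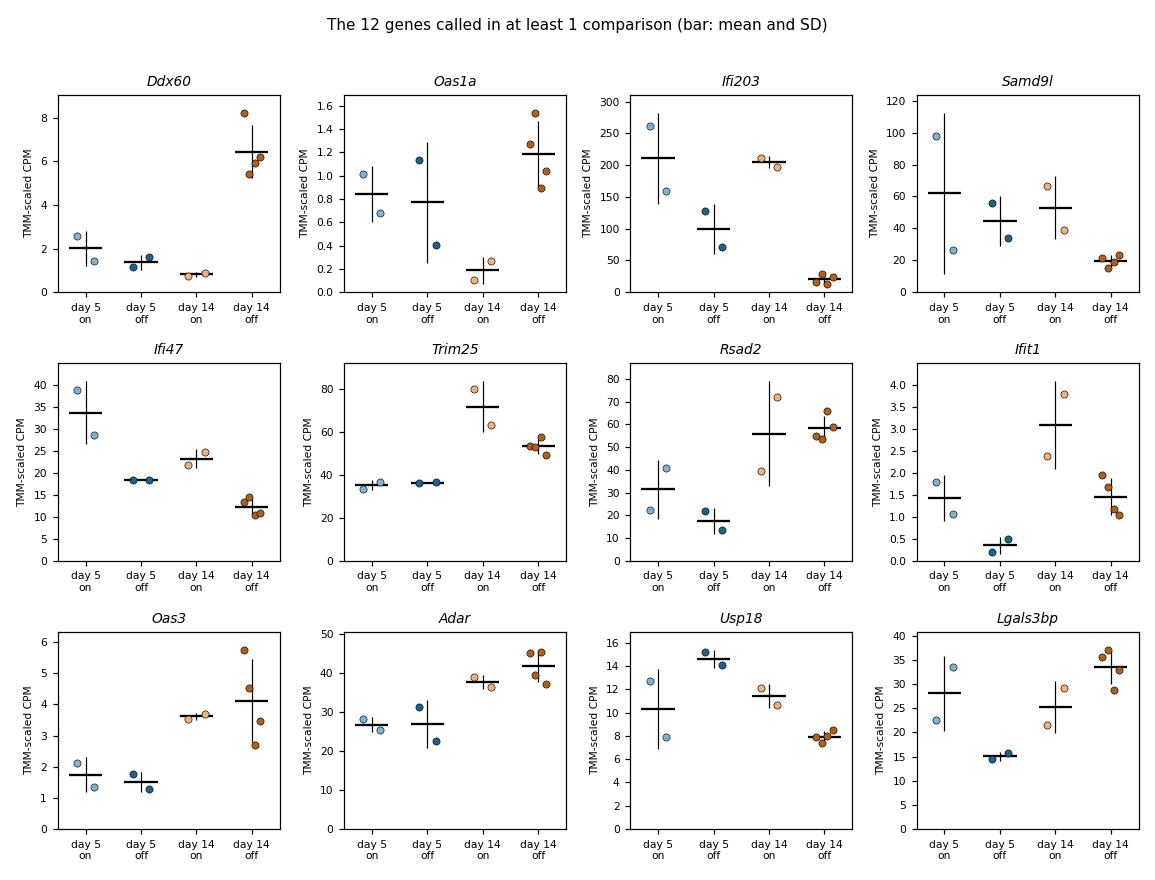
TMM-scaled CPM of the 12 genes called in at least 1 of the 5 comparisons, for each library (points) by group, with the group mean (horizontal bar) and SD (vertical line). The 4 day 14 off libraries stand above all others for Ddx60 and below all others for Ifi203, while Trim25 and Oas3 are higher in all day 14 libraries than in all day 5 libraries.

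At day 5 no interferon-stimulated gene passed edgeR's test in either direction. At an unadjusted p under 0.05 by edgeR there were 8 genes, and the share of all genes at that threshold is not reported here. DESeq2 called 2 (Ifi47 and Lgals3bp, both lower), with 472 of all genes called, and limma voom called 0. In the main fit 0.371% of all tested genes were called higher and 0.113% lower, 0.484% in all (77 genes). The median log2 change of the 39 genes was -0.24, against -0.02 over all genes, but it was 0.08 without day 5 on replicate 1 and -0.53 without day 5 off replicate 1. With no low-count filter 5 of the genes were called lower, and 992 of all genes were called in either direction. Off lay above on without overlap for 2 genes (background 19.3%) and below for 8 (20.5%, background 20.9%).

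By role, the GTPases again had negative log2 changes at day 5, from -1.32 (Gbp3) to -0.24 (Irgm1). Ifi47 read 38.7 and 28.6 CPM at day 5 on and 18.4 and 18.3 CPM at day 5 off, a log2 change of -0.87 ± 0.22 (adjusted p = 0.109). Ifi203 read 261 and 160 CPM at day 5 on and 127 and 71.4 CPM at day 5 off, a log2 change of -1.08 ± 0.40 (adjusted p = 0.249). Neither gene overlapped between the groups. Ddx60 did overlap, with 2.59 and 1.43 CPM on and 1.13 and 1.62 CPM off. The IFIT genes ran from -1.93 to -0.01, the membrane genes from -0.85 to -0.06, the sensors from -0.88 to 0.28 and the ISG15 and ubiquitin genes from -0.36 to 0.54. The double-stranded RNA enzymes ran from -0.88 (Oasl2) to 1.29 (Oas2), the transcription factors from -0.24 to -0.03 and the other tested genes from -0.90 to 0.18, and Ifi204 was at 0.52.

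Whether the off over on change itself differed between days was tested as the day 14 change minus the day 5 change. The difference was positive for Ddx60, at 3.45 ± 0.57 (adjusted p = 0.017), and for Lgals3bp, at 1.30 ± 0.30 (adjusted p = 0.048). For Lgals3bp the log2 change was -0.90 at day 5 and 0.40 at day 14. None of the 39 genes had a negative difference called. The background was 1.65% higher and 1.41% lower (3.06% in all), and the 2 genes are 5.13% of the 39. Without day 5 off replicate 1 the adjusted p of Ddx60 was 0.0657 (range over the alternatives 1.67e-05 to 0.0657). Lgals3bp lost its call in 13 of the 17 alternatives run. Its day 5 on libraries read 22.6 and 33.6 CPM, its day 5 off libraries 14.4 and 15.7 CPM, its day 14 on libraries 21.6 and 29.2 CPM, and the day 14 off libraries ran from 28.8 to 37.0 CPM. For Ifi203 the difference was -2.23 ± 0.52 (adjusted p = 0.0508), and it passed the threshold in 8 of the alternatives.

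With R882H left on, day 14 was compared with day 5, and Trim25 alone rose. It went from 33.5 and 36.9 CPM to 80.2 and 63.5 CPM (log2 change 1.03 ± 0.16, adjusted p = 0.02), with no overlap. The 1 rise is 2.56% of the genes, against a background of 0.968% higher and 1.36% lower (2.32% in all). In an edgeR fit of the on libraries alone the adjusted p was 0.408 (range over the alternatives 4.45e-06 to 0.408), and 0 genes of the whole table were called. The call also ended without day 14 on replicate 1 (log2 change 0.88) and without day 14 off replicate 1 (adjusted p = 0.0505). Day 14 lay above day 5 without overlap for 8 genes (background 20.6%), among them all 3 IFIT genes, and below for 6 (background 23.1%), among them Ddx60 and Oas1a.

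With R882H turned off, 7 genes were higher at day 14 than at day 5 and 2 were lower. The rises are 17.9% of the 39 genes, against 10.1% of all tested genes, and the falls 5.13%, against 6.94% (17% in either direction). Day 14 lay above day 5 without overlap for 10 genes (25.6%, background 24.2%) and below for 5 (12.8%, background 21.5%). The median log2 change was 0.01, against -0.01 for all genes, and without day 5 off replicate 1 it was 0.32. This comparison shares its libraries with those between off and on.

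Ddx60 (log2 change 2.20 ± 0.36, adjusted p = 0.00347) and Ifi203 (-2.27 ± 0.33, adjusted p = 0.00294) were again at the ends of the range, and both calls held in each of the alternatives run. Rsad2 went from 21.7 and 13.5 CPM to 54.9, 53.6, 65.9 and 58.9 CPM (1.74 ± 0.32, adjusted p = 0.00615). The rise of Rsad2 left no overlap, and its call ended without day 5 off replicate 2 (adjusted p = 0.0567, the highest over the alternatives). Lgals3bp rose by 1.15 ± 0.21 (adjusted p = 0.00507) and lost its call without day 5 off replicate 1 (adjusted p = 0.0765, the highest over the alternatives). Usp18 went from 15.2 and 14.0 CPM to 7.87, 7.39, 7.99 and 8.47 CPM (-0.88 ± 0.20, adjusted p = 0.0148). Its groups were far apart beside their spread, yet with either day 5 off library left out the adjusted p rose to 0.116 or 0.0619.

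The other 4 rises were smaller or rested on fewer reads. Ifit1 had 2 and 6 counts at day 5 off and 23, 23, 17 and 11 at day 14 off (3.99-fold higher, SE of the log2 change 0.56, adjusted p = 0.033). Oas3 went from 1.75 and 1.30 CPM to 5.76, 4.54, 2.68 and 3.48 CPM (1.43 ± 0.39, adjusted p = 0.03). Trim25 (0.56 ± 0.14, adjusted p = 0.0217) and Adar (0.63 ± 0.17, adjusted p = 0.0262) also rose. Each of these 4 lost its call when any of 4 single libraries was left out. For Ifit1, Oas3 and Trim25 these were day 5 off replicates 1 and 2 and day 14 off replicates 1 and 2, and for Adar day 5 off replicate 2 and day 14 off replicates 1, 2 and 3. The adjusted p then reached 0.245 for Ifit1, 0.178 for Oas3, 0.169 for Trim25 and 0.212 for Adar, the highest over the alternatives. Ifit1 and Oas3 also lost their call with limma voom (adjusted p = 0.0676 and 0.0526). Neither was tested under the filter of 5 CPM in 2 libraries. Chrnb2, on the strand opposite Adar, had a like change of 0.61, and the reads of the pair cannot be told apart without the strand setting.

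The rest of the interferon pathway was described by 9 lists of 160 genes, of which 157 were in the table and 127 passed the filter. At day 14, 8 of the 127 were higher with R882H off and 33 were lower, against 16.9% higher and 14.9% lower among all tested genes, and the median log2 change was -0.35. Both shares are the background of each day 14 count by list below. No gene of these lists passed the test at day 5. Genes below that are not among the 4 of smallest p in a comparison, or beside Ifi203, were chosen for mention after their values were seen.

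The 20 ligand genes gave almost no reads, and none passed the filter. Of these, 12 had no count in any library. Ifnb1, the first type I interferon made on infection, had 16 counts in all, 13 of them in day 14 on replicate 2, and Ifng had 40 counts, 21 of them in day 14 off replicate 2. The library with most Ifnb1 reads was also the highest for Ifit1, Ifit2, Ifit3 and Rsad2 and held 32.2 CPM of Cxcl10, against 13.8 CPM in the other day 14 on library. Other genes were lower there than in that library, among them Samd9l (39.3 against 66.8 CPM), Stat2 (14.7 against 24.7 CPM) and Irf7 (27.1 against 34.2 CPM). The mean log2 CPM of the 39 tested genes was 3.85 there and 3.86 in the other. A link of these levels to the Ifnb1 reads was not tested.

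Of the 6 receptor genes, 3 fell at day 14 and none rose. Ifnar2, the ligand-binding chain of the type I receptor, read 89.9 and 95.6 CPM at day 14 on and 48.8, 52.4, 56.5 and 49.5 CPM at day 14 off (log2 change -0.84 ± 0.13, adjusted p = 0.000837), and its groups lay far apart. Ifnar1 (-0.82) and Il10rb (-0.57), a chain of the type III receptor, fell as well, but each lost its call in 5 alternatives: limma voom, without day 14 on replicate 1 and without day 14 off replicate 1, 2 or 4 (adjusted p up to 0.444 and 0.366). Of the 7 JAK-STAT genes 2 fell: Jak1, the kinase that serves all interferon receptors (-1.06 ± 0.18, adjusted p = 0.00146), and Stat3 (-0.69).

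Of the 9 further IRF genes 4 fell at day 14, namely Irf1 (-0.82), Irf2 (-0.73), Irf4 (-2.70) and Irf2bp2 (-0.64), a corepressor of IRF2. Among the 14 tested sensors and adaptors Tmem173, which encodes STING, fell from 147 and 186 CPM at day 14 on to 21.6, 33.8, 36.0 and 27.9 CPM at day 14 off (-2.48 ± 0.20, 5.56-fold lower, adjusted p = 4.78e-05). At day 5 Tmem173 lay at 167 and 239 CPM on and at 107 and 110 CPM off (-0.91, adjusted p = 0.132). Aim2, a p200 sensor that starts the inflammasome, fell from 142 and 130 CPM to 46.6, 48.6, 57.8 and 68.5 CPM (-1.29 ± 0.15, adjusted p = 0.000217). Both genes kept wide gaps between the day 14 groups, and their falls at day 14 were called in each of the alternatives run. Tbk1 (-0.61), the kinase behind STING, also fell, and Traf3 (1.12) rose.

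Of the 10 nucleases and other limits on self nucleic acids 2 rose at day 14, and both are subunits of RNase H2: Rnaseh2c (0.84 ± 0.14, adjusted p = 0.00123) and Rnaseh2b (0.68). Of the 11 signalling inhibitors 3 fell, Pias1 (-0.69), Pias3 (-0.76) and Ptpn6 (-0.61). In the list of further interferon-induced genes 5 of 61 tested rose and 14 fell. The rises were Ube2l6 (2.79 ± 0.42, adjusted p = 0.000911), the conjugating enzyme for ISG15, Nt5c3 (1.13 ± 0.13, adjusted p = 0.000216), a pyrimidine nucleotidase abundant in red cells, Ccl5 (1.58), Isg20 (1.44) and Ifi27 (1.28). The falls took in 5 guanylate-binding proteins, Gbp6 (-2.15 ± 0.37, adjusted p = 0.00189), Gbp10 (-2.13), Gbp4 (-1.97), Gbp8 (-1.74) and Gbp9 (-1.42), relatives of Gbp2 and Gbp3. Gbp5 (1.11, adjusted p = 0.131) and Gbp7 (0.25, adjusted p = 0.491) of the same family had positive log2 changes that did not pass the test. Gbp6 read 17.4 and 19.3 CPM at day 14 on and 3.81, 6.59, 3.17 and 2.92 CPM at day 14 off, with no overlap. The other falls were those of Ifit1bl1, Cxcl10, Mlkl, Slfn8, Sp110, Sp100, Ifitm1, Trim34a and Shisa5, from -2.32 to -0.41.

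Many of these day 14 calls were lost when 1 of the 2 day 14 on libraries was left out. That leaves a group of 1 library, and fewer of all genes were called as well without replicate 1. In that fit the log2 change of Tbk1 went from -0.61 to -0.56 and that of Sp100 from -0.72 to -0.47. A weaker test and a change that rests on 1 library were not told apart. Without day 14 on replicate 1, Irf1, Irf2, Isg20, Tbk1, Slfn8, Sp100 and Ptpn6 were no longer called (adjusted p from 0.069 to 0.201), and without replicate 2, Irf2bp2, Gbp10, Stat3, Cxcl10 and Pias3 were not (0.0506 to 0.132). Mlkl, Ifit1bl1 and Ifitm1 lost their call when either of the 2 was left out, and each in 1 further alternative (up to 0.121). Trim34a lost its call without day 14 on replicate 2 (0.292) and without day 14 off replicate 1. Ccl5 lost its call in 4 alternatives, namely limma voom, the fit of the day 14 libraries alone and leaving out either day 14 on library (up to 0.204). Shisa5 lost its call in 9 of 18, among them both fits without a day 14 on library (up to 0.146), no low-count filter and the replicate block (0.0713).

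**Figure D3:**
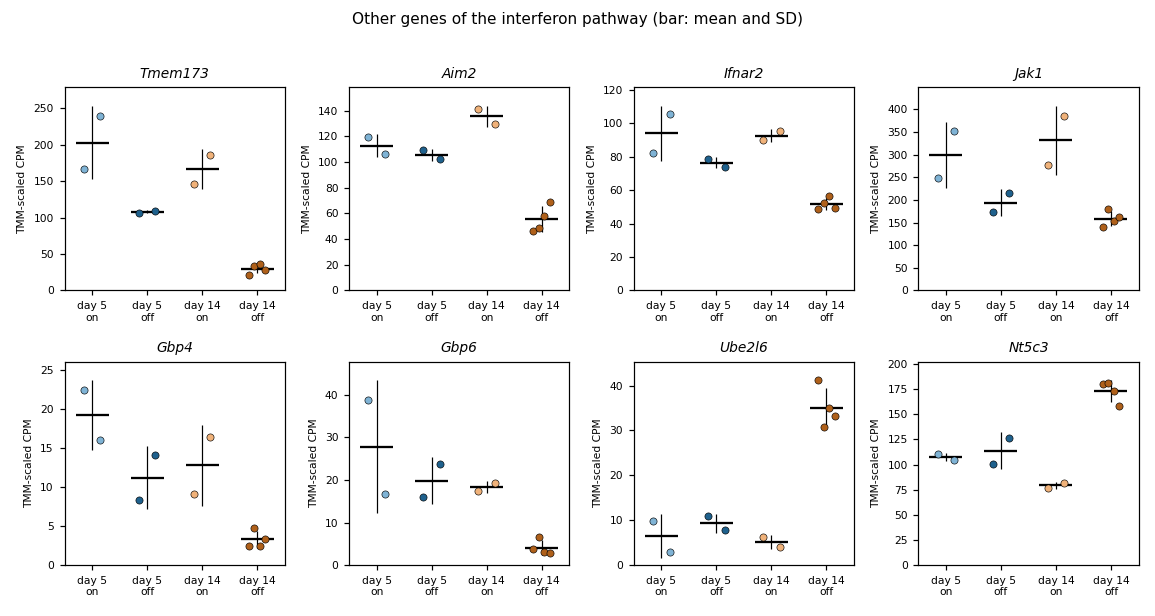
TMM-scaled CPM of 8 further genes of the interferon pathway, for each library (points) by group, with mean (horizontal bar) and SD (vertical line). Tmem173, Aim2, Ifnar2, Jak1, Gbp4 and Gbp6 have their lowest group mean at day 14 off, and Ube2l6 and Nt5c3 their highest, with no overlap between the day 14 on and off groups.

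For 5 pathway genes the off over on change differed between the days: Tmem173 (-1.57), Aim2 (-1.20) and Tbk1 (-0.93) were lower and Nt5c3 (1.05) and Rnaseh2c (0.98) higher. Each of these lost its call in at least 5 of the alternatives. Between day 5 and day 14 with R882H off, 11 pathway genes rose and 15 fell (background 10.1% higher and 6.94% lower), with Tmem173 at -1.85, Gbp6 at -2.26 and Cmpk2, the neighbour of Rsad2, at 1.14. With R882H on, 2 rose, Shisa5 (1.03) and Irf2bp2 (0.89), and none fell (background 0.968% higher and 1.36% lower). In an edgeR fit of the on libraries alone the adjusted p of both was 0.408, and 0 genes of the whole table were called. Shisa5 lost its call in 4 and Irf2bp2 in 7 of 18 alternatives, in each case also when either day 14 on library was left out.

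Libraries of one group differed in these genes. Day 5 on replicate 1 was the highest of the 10 libraries for 13 of the 39 genes and day 14 on replicate 2 for 7. The mean log2 CPM of the 39 genes was 4.11 and 3.37 in the day 5 on libraries and 3.76 and 3.19 in the day 5 off libraries. It was 3.86 and 3.85 in the day 14 on libraries and ran from 3.49 to 3.84 in the off libraries of that day. The 2 libraries of each day 5 group were further apart than any day 14 on library from any day 14 off library. The summed GTPases held 143 CPM in day 5 on replicate 1 and 69.7 CPM in replicate 2, and the 10 monocyte and macrophage markers 207 and 61.5 CPM. Their part in the day 5 result was not tested.

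**Figure D4:**
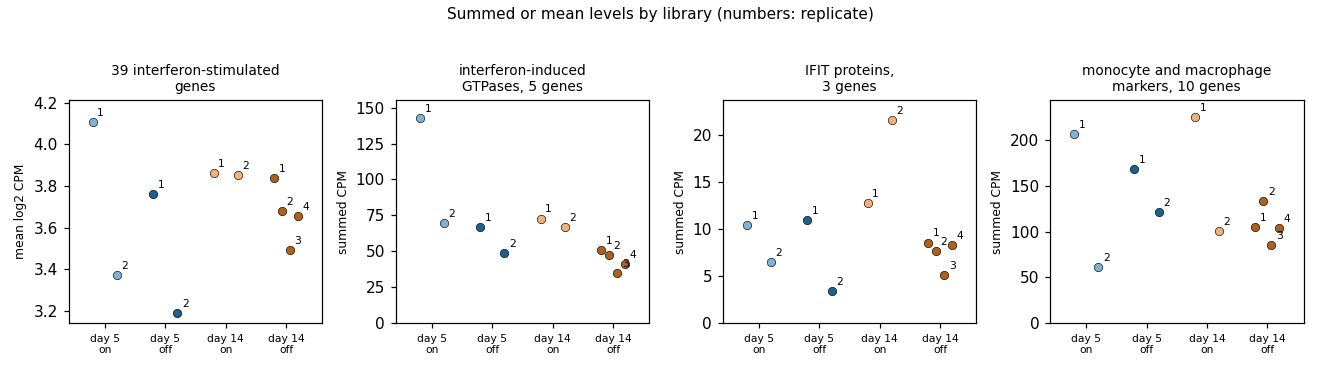
Levels by library and group: mean log2 CPM of the 39 tested genes, and summed TMM-scaled CPM of the 5 GTPases, the 3 IFIT genes and 10 monocyte and macrophage markers; numbers give the replicate. Day 5 on replicate 1 stands above replicate 2 in all 4 panels, and day 14 on replicate 2 is the highest library for the IFIT genes.

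Markers of other cell types moved as well, against a background at day 14 of 16.9% higher and 14.9% lower. Of 10 erythroid markers 7 rose at day 14, with a median log2 change of 3.97. Car1, a carbonic anhydrase of red cells, read 14.1 and 9.94 CPM at day 14 on and 1138 to 1259 CPM at day 14 off, and Gata1, the erythroid transcription factor, 3.52 and 2.26 CPM on and 58.2 to 76.3 CPM off. The sum of the 10, which Hbb-bt dominated at day 14 on without being called itself, was 889 and 1599 CPM on and 2678 to 3439 CPM off. At day 5, where 0.371% of all genes were called higher, 3 of the 10 were, and the median log2 change was 2.65. Of 9 tested monocyte and macrophage markers 4 fell, with sums of 100.4 and 225 CPM on and 85.6 to 133 CPM off; Fcgr1 was at or near 0 in every library. Of 8 tested plasmacytoid dendritic markers 3 fell (sums 246 and 316 CPM on, 74.6 to 94.4 CPM off), with Bst2 also among the 40 genes, Tcf4 and Runx2 making up most of the sum, and the defining marker Siglech at 0 to 0.516 CPM throughout. Of 9 tested T and NK markers 4 fell (sums 94.0 and 145 CPM on, 50.5 to 108 CPM off), with Cd3e under the filter. Of 10 neutrophil markers 2 fell (1197 and 2013 CPM on, 793 to 1160 CPM off), of 7 tested progenitor markers 4 fell (470 and 630 CPM on, 414 to 427 CPM off), and of 5 tested B markers none changed (7.14 and 10.99 CPM on, 7.87 to 10.8 CPM off). The part of these cell types in the changes of the interferon-stimulated genes was not tested.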

How the data were processed

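RNA was taken from sorted cells and made into QuantSeq 3′ libraries sequenced as single-end reads, per the labels' protocols. Per the submitters' processing notes the tools were HISAT2 2.0.4 on mm10, Subread 2.0.0 with featureCounts, cutadapt 1.14, bcl2fastq 2.17.1.14, limma 3.48.3 and edgeR 3.34.0. The strand setting and the annotation release of the counting are among the details not given in the sources used here. Raw counts per Ensembl gene, without normalisation, were deposited by the authors in 1 table of 52636 genes. Names and positions came from GENCODE M21 (52489 IDs matched, 147 did not) and promoter windows from RefSeq. A 3′ count does not grow with gene length, and levels of different genes were not compared.

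The analysis used edgeR 4.0.16 in R 4.3.3: filterByExpr by the 4 groups (15916 genes), TMM scaling, a robust quasi-likelihood fit with 1 mean per group over all 10 libraries, and Benjamini-Hochberg adjustment over all tested genes, called at 0.05. The script was tested on repeated draws of simulated data and judged on the false calls pooled over them, a criterion set after a single draw had slightly exceeded the bound first chosen. The pooled share of false calls was a little above the nominal level, so calls near the threshold are less firm. CPM are TMM-scaled, and ± after a log2 change is the standard error. Libraries were grouped by their titles. DESeq2 1.42.0, limma 3.58.1 (voom), RLE scaling, no filter, 5 CPM in 2 libraries, only the compared groups, no ribosomal RNA locus genes, a replicate block and leaving out each library were the alternatives. In the block, day 14 off replicates 3 and 4 have no partner in another group and do not inform the comparisons. Added after the values were seen were the sum of Ifi203 and Mndal and the alternatives of the pathway and sort marker genes.

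The members and lists were chosen with earlier results of these data known. Members called in any comparison are given by library and the others by role; of the 9 pathway lists, up to 4 called genes of smallest p per comparison and the tested p200 neighbours are named by rule. Values of some pathway genes are not reported here, though the counts include them. No list was given a test of its own.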

Additional observations from a re-analysis of the deposited data

Results flagged for a closer look

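For 6 of the named genes the off over on change differed between day 14 and day 5 by edgeR's test of that difference (log2 change at day 14 minus that at day 5). Ddx60 differed by 3.45 (adjusted p = 0.017) and was higher off in 4 of 4 day 14 off libraries. Lgals3bp differed by 1.30 (adjusted p = 0.048), with both day 5 off libraries below both on libraries and overlapping groups at day 14. Tmem173 differed by -1.57 (adjusted p = 0.0332) and Aim2 by -1.20 (adjusted p = 0.0329). Nt5c3 differed by 1.05 (adjusted p = 0.0278) and Rnaseh2c by 0.98 (adjusted p = 0.0353). Tbk1 (-0.93) passed the same test but is outside the naming rule. Among 47 genes checked in the 4 day 14 off libraries, none had a library far from the other 3, where chance would give about 5%.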

How the results depend on the processing

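Alternatives were followed for 101 results of single genes. Genes of the 40 entered if the main fit called them in any comparison, and then in each comparison where some setting called them. Those called only under an alternative, such as Dtx3l and Parp9, are left out. Chosen pathway genes and both sort markers entered only where the main fit called them, so they could not gain a call. Within this selection the direction was the same in every alternative run. Of the 101 results, 29 kept their call in all, 60 lost it in some and 12 gained it in some. The cause of these changes was not tested, apart from the smaller number of libraries in the fits that leave some out. Main counts are in the report, and the values here are those that moved by over 1.5 times. Calls over all genes moved as well, and they stand beside the counts of the 40 genes and of the pathway genes below. At day 14 they were 5063 in the main fit, 5605 with no filter and 4262 with 5 CPM. DESeq2 gave 5232 and the fit of only the compared groups 5551. At day 5 they were 77 in the main fit, 992 with no filter and 472 with DESeq2. For the difference between days they were 487 in the main fit, 1957 with no filter and 1327 with DESeq2. RLE gave 424, 5 CPM 515, voom 411 and no ribosomal RNA locus genes 459. From day 5 to day 14 on they were 370 in the main fit, 1275 with no filter and 1136 with DESeq2. The fit of only the compared groups gave 0 there. From day 5 to day 14 off they were 2706 in the main fit, 3196 with DESeq2 and 3817 with only the compared groups. For the 40 genes at day 14, rises were 5 with no filter, 1 with 5 CPM, 4 with only the compared groups and 1 to 4 with a library left out; falls were 7 with no filter, with 5 CPM and with DESeq2, 11 with only the compared groups and 2 to 8 with a library left out. At day 5 falls were 5 with no filter, 2 with DESeq2 and 0 to 1 with a library left out. For the difference between days, rises were 1 with RLE, 5 CPM, voom and no ribosomal RNA locus genes and 0 to 2 with a library left out; falls were 1 with RLE, 5 CPM and voom, 2 with no filter and DESeq2, and 0 to 3 with a library left out. From day 5 to day 14 on, rises were 2 with no filter, 0 with only the compared groups and 0 to 1 with a library left out; falls were 1 with no filter and 0 to 1 with a library left out. From day 5 to day 14 off, falls were 4 with DESeq2 and with only the compared groups and 1 to 4 with a library left out, and rises 2 to 7 with a library left out.

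For the pathway genes at day 14, no filter gave 13 rises and 52 falls, and leaving out a library 7 to 10 and 21 to 41. At day 5 rises were 2 with no filter, 1 with DESeq2 and 0 to 1 with a library left out, and falls 8, 1 and 0 to 2. For the difference between days rises were 8 with no filter, 4 with DESeq2 and 0 to 3 with a library left out, and falls 16, 7 and 0 to 10. From day 5 to day 14 on, rises were 11 with no filter, 5 with DESeq2, 0 with only the compared groups and 0 to 2 with a library left out, and falls 5 with no filter and 0 to 4 with a library left out. From day 5 to day 14 off, rises were 0 to 12 with a library left out, and falls 23 with only the compared groups and 4 to 23 with a library left out.

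Replicate numbers are shared between groups, but the labels do not say what a number shares, so the numbers were not taken as pairing. Each comparison has only 2 same-numbered pairs. Their deviations correlated at 0.03 to 0.33, positive in every pair. Between groups of 2 libraries the deviations mirror each other, so both same-numbered pairs give 1 value and the other pairs its negative. Pairs of unlike number that include a day 14 off library ran from -0.30 to 0.19. Whether libraries of the same number share something was not tested. Replicates 3 and 4 occur only at day 14 off, so a replicate block fits each of these libraries exactly. Its day 14 off levels then rest on replicates 1 and 2. With the replicate block 225 of all genes were called at day 5, against 77 in the main fit. For the difference between days 1521 were called, against 487. With the replicate block the 40 genes had 3 rises and 4 falls at day 14, with the call of Trim25 lost (adjusted p = 0.0597; range over the alternatives 0.0152 to 0.288), and none at day 5. The block gave the pathway genes 1 fall at day 5, 5 rises and 11 falls for the difference between days, and 9 rises from day 5 to day 14 on. Without day 5 on replicate 1 the median log2 change of the 39 genes was -0.29 for the difference between days and 0.49 from day 5 to day 14 on. Where a group was left with 1 library, it was assumed to vary like the others. For Oas1a, a gene of few reads, the standard error of the day 14 log2 change (0.69) was larger than the change called for Trim25 (-0.43). Such an error holds both counting error and spread between libraries, and the part of depth in it was not tested.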
